A study of Sus scrofa with 90 samples.

Results

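The 31 features described here are spots of a nylon cDNA array that carry no single gene symbol and that were higher than control muscle in 7 d and 21 d lesions. They were selected on their values among 1702 features without a single symbol, out of 1908 features with a value in every column. The selection took each feature's mean in a lesion group minus its mean in the controls, on quantile-normalized values, and kept those with a difference of at least 0.3 at 7 d and at 21 d and below 0.3 at 6 h. The differences at 6 h, 7 d and 21 d therefore chose the features and are given without a test. Each feature is named by its number in the feature list, since no gene, and so no function, can be given for it here.

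The samples were Longissimus dorsi muscle, the long muscle of the back, from 10 piglets named C to L. Propylene glycol, a solvent used to carry injected drugs, was given into this muscle at several times before collection, so that each pig carried lesions of 6 h, 2 d, 7 d and 21 d at randomised sites. The controls came from a site of the same pigs that was not injected. No group received an injection of another liquid, so the solvent and the needle cannot be told apart, and no breed, sex or exact age is used here. The groups held 10 control arrays, 9 arrays of 6 h, 10 of 2 d, 9 of 7 d (none for pig J) and 9 of 21 d (none for pig L).

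Injected solvents can kill muscle fibres at the site. Dead fibres are cleared by inflammatory cells, after which satellite cells, the stem cells of muscle, divide and fuse into new fibres while fibroblasts lay down connective tissue. In a bulk sample of such a site, a changed number of cells of a type and a changed amount of RNA per cell cannot be told apart. Of 18 muscle fibre markers 13 were measured, in 66 features with a median control level of 0.277. Of the other lists, FN1 was the only one of 9 fibroblast and matrix markers measured and PECAM1 the only one of 3 endothelial markers. None of the 9 satellite cell, 7 macrophage, 5 neutrophil, 5 lymphocyte, 3 adipocyte or 3 blood markers was measured, so the part of these cells in the results was not tested.

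The table's values, from -1.33 to 5.00, are on a log scale, and no source used here names its base. Differences are therefore given in log units and not as folds. The 6 h array of pig F was left out because its values appear to stand under the wrong features. Set against the average of the remaining arrays, its r was 0.240 as listed and 0.739 after a move of 384 features. The 47 arrays kept had an r of 0.718 or more as listed. The spread of the values within an array was widest in controls, with an array SD of 0.976 ± 0.237 (mean ± SD over 10 arrays), and narrowest in the late lesions, with 0.607 ± 0.158 for the 9 arrays of 7 d and 0.643 ± 0.196 for the 9 of 21 d. The 6 h arrays had 0.744 ± 0.0926 and the 2 d arrays 0.805 ± 0.0985. Which features met the selection depended on how this spread was treated.

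Over the 31 features the median difference from control, whose arrays all 4 ages share, was 0.22 in 6 h lesions, 0.09 in 2 d lesions, 0.50 in 7 d lesions and 0.48 in 21 d lesions. Over all 1908 features these medians were -0.016, -0.021, -0.0088 and -0.00050. At 7 d the selected differences ran from 0.31 to 1.23 and at 21 d from 0.30 to 1.29, with 16 and 13 features at 0.5 or more. At 6 h they ran from -0.07 to 0.29, and 30 of the 31 were above 0, 19 of them by at least 0.2. Of the 1702 features without a single symbol 776 were above 0 at 6 h. On the table's own values, and on arrays centred on their median, 24 of the 31 were above 0 at 6 h. The name "higher only in late lesions" thus goes partly against the values: most of these features were also above control at 6 h, by less than the bound of 0.3. The largest differences lay at 21 d for 19 features and at 7 d for 12, and for 15 features the differences at 7 d and 21 d lay within 0.1 of each other.

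**Figure D1:**
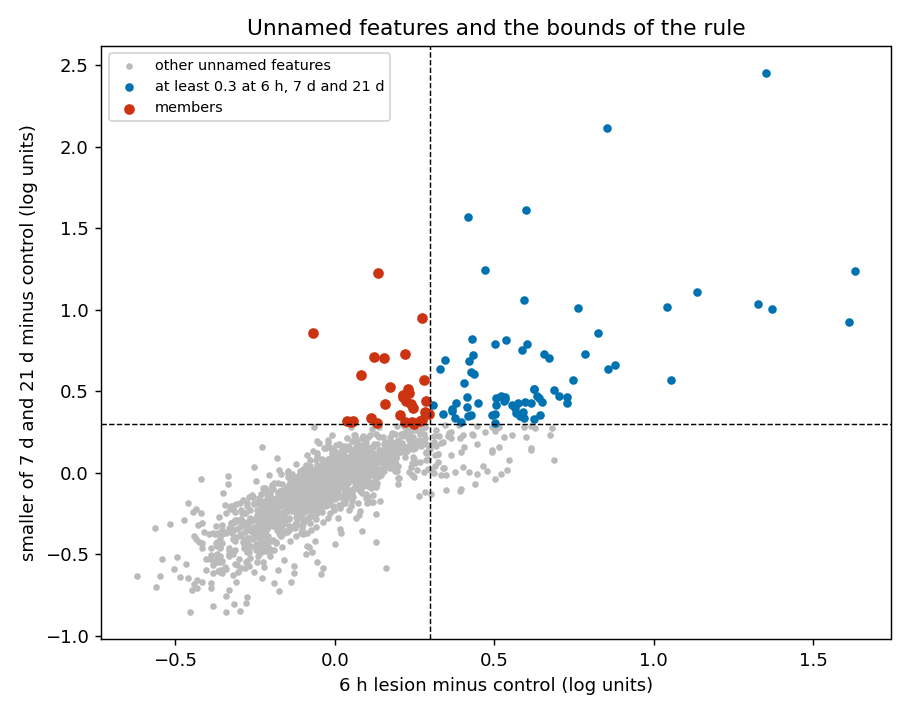
The smaller of the 7 d and 21 d differences from control (vertical axis) against the 6 h difference (horizontal axis), in log units, for the 1702 features without a single symbol, with dashed lines at 0.3. By the choice itself the 31 selected features (red, members) fill the upper left corner, and the 74 that were high at 6 h too (blue) lie to their right.

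The features nearest the bounds show that the edge of the group is narrow. Just inside the late bound lay feature 7621 (0.30 at 21 d), feature 5362 (0.31 at 21 d) and feature 5508 (0.31 at 7 d). Just outside it lay features 6698, 7895 and 7570, at 0.298, 0.294 and 0.290 at 21 d. Just inside the 6 h bound lay features 4620, 6306 and 5574, at 0.295, 0.288 and 0.282. Just outside it lay features 7903, 5523 and 5459, at 0.308, 0.332 and 0.339. No gap in the values thus separates the selected features from those left out. With no bound at 6 h, 105 features without a single symbol were at or above 0.3 at both late ages, of which 74 were so at 6 h too. Those 74 had median differences of 0.58, 0.07, 0.73 and 0.47 in the order of lesion age.

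A core of 4 features met the selection under each of 5 other settings, and they are described first. The settings were the table's own values, arrays centred on their median, centred arrays divided by their SD, values with a local trend along the feature list subtracted, and the array SD as a term in the model. The local trend and the array SD term were applied to quantile-normalized values. Table and centred values differ only by a shift of each array. On arrays divided by their SD the bound was in array SDs. There 15 of the 31 were at or above it at 6 h, 1 was below it at 7 d and 1 at 21 d. Features 4853, 5957, 6931 and 7477 met the bounds under all 5, features 6477, 6706 and 8378 under 4, and 9 features under 3. A further 4 met them under 2, 6 under 1, and 5 under none (features 4620, 5574, 6918, 7621 and 7958).

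Feature 4853 had the largest late differences of the 31. Its level lay between 0.938 and 1.410 in controls (median 1.150), between 0.938 and 1.644 at 6 h (median 1.248) and between 0.801 and 1.610 at 2 d (median 1.191). It then lay between 2.034 and 3.026 at 7 d (median 2.337) and between 1.943 and 3.118 at 21 d (median 2.483). Every late lesion thus stood above every control, 6 h and 2 d sample, while the 6 h and 2 d samples overlapped the controls. Its differences were 0.14, 0.01, 1.23 and 1.29 at 6 h, 2 d, 7 d and 21 d. On table values feature 4853 was lower than control by -0.31 at 6 h and -0.40 at 2 d and higher by 0.37 at 7 d and 0.48 at 21 d, so its early direction and the size of its late difference depended on the scaling.

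Feature 5957 was higher at 21 d than at 7 d by its medians, with overlapping groups. It lay between -0.227 and 0.227 in controls (median -0.073), between -0.110 and 0.413 at 6 h (median 0.085) and between -0.585 and 0.836 at 2 d (median -0.036). At 7 d it lay between 0.287 and 0.921 (median 0.687) and at 21 d between 0.382 and 1.248 (median 0.904). All late lesions again lay above every control, while the 2 d lesions spread on both sides of the controls. The differences of feature 5957 were 0.15, 0.12, 0.70 and 0.90, and on table values 0.23, 0.23, 0.61 and 0.79.

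Feature 7477 had the largest difference between the late ages. It lay between -0.334 and -0.046 in controls (median -0.284), between -0.344 and 0.072 at 6 h (median -0.202) and between -0.429 and -0.156 at 2 d (median -0.313). It then lay between 0.042 and 0.851 at 7 d (median 0.244) and between 0.165 and 1.588 at 21 d (median 0.921). Every late lesion lay above every control, and the 2 d lesions did not stand above them. The differences of feature 7477 were 0.08, -0.06, 0.60 and 1.11, and on table values 0.15, -0.024, 0.55 and 1.02.

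Feature 6931 was more variable between pigs. It lay between -0.400 and 0.446 in controls (median -0.279), between -0.316 and 0.346 at 6 h (median -0.125) and between -0.257 and 0.331 at 2 d (median -0.156). At 7 d it lay between -0.080 and 1.310 (median 0.569) and at 21 d between -0.168 and 1.492 (median 0.317). The late lesions overlapped the controls here, with 5 of 9 lesions at 7 d and 4 of 9 at 21 d above the highest control. The differences of feature 6931 were 0.12, 0.09, 0.71 and 0.74, and the lesion was above the same pig's control in 9 of 9 pigs at 7 d and 8 of 9 at 21 d.

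**Figure D2:**
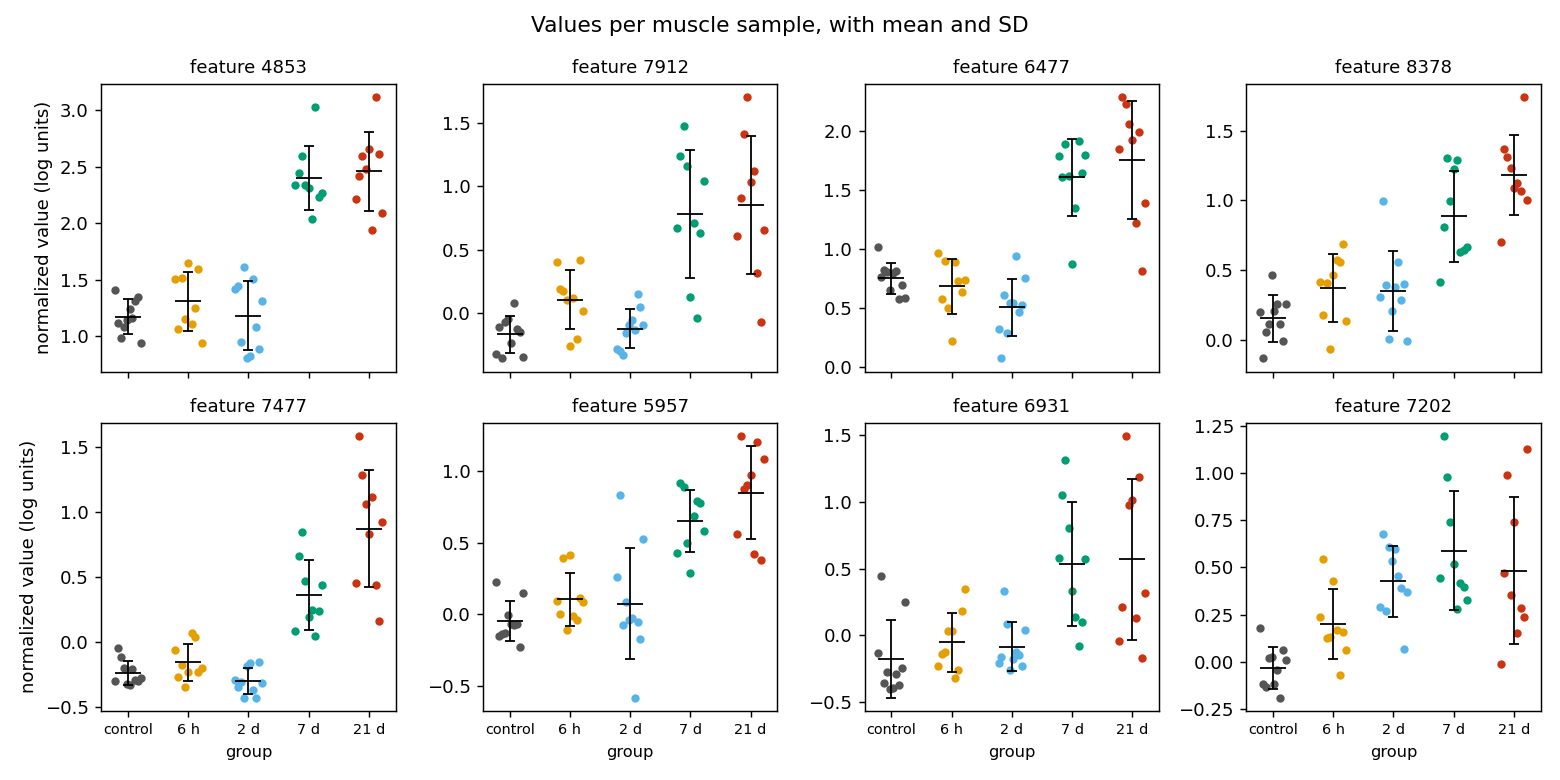
Quantile-normalized value (log units, each panel with its own scale) in every muscle sample by group, for the 7 features with the largest mean late difference and feature 7202; points are samples, and the bar and whiskers are the group mean and SD. The late lesions of features 4853, 7477 and 5957 do not overlap their controls, while those of feature 6931 do, and feature 7202 is already above control at 2 d.

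Features 7912, 6477 and 8378 had differences of at least 1 at 21 d as well. Feature 7912 lay between -0.356 and 0.080 in controls (median -0.137), between -0.040 and 1.476 at 7 d (median 0.709) and between -0.066 and 1.706 at 21 d (median 0.906). Its 6 h lesions, between -0.259 and 0.423 with a median of 0.118, lay between the controls and the late lesions, with a difference of 0.27, and its 2 d lesions were back near control, with a difference of 0.04. At each late age 8 of 9 lesions were above the highest control of feature 7912.

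Feature 6477 was the one member that was below control at 6 h. It lay between 0.574 and 1.019 in controls (median 0.780), between 0.223 and 0.963 at 6 h (median 0.728) and between 0.071 and 0.942 at 2 d (median 0.532). At 7 d it lay between 0.871 and 1.918 (median 1.644) and at 21 d between 0.815 and 2.295 (median 1.927). Its 2 d difference of -0.25 was the lowest of the 31 features, and its late differences were 0.86 and 1.0, with 9 of 9 pigs above their own control at both ages. On table values the 7 d difference of feature 6477 was 0.28, under the bound.

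Feature 8378 lay between -0.134 and 0.466 in controls (median 0.158), between 0.413 and 1.303 at 7 d (median 0.809) and between 0.699 and 1.744 at 21 d (median 1.125). All 21 d lesions and 8 of 9 lesions at 7 d were above its highest control. The 6 h and 2 d lesions of feature 8378 had differences of 0.22 and 0.20 and overlapped the controls.

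The remaining members of the 10 with the largest late differences overlapped their controls at 21 d. Feature 6778 lay between 0.169 and 0.690 in controls (median 0.470), between 0.224 and 1.963 at 7 d (median 1.403) and between 0.483 and 1.388 at 21 d (median 0.940), with late differences of 0.84 and 0.49. Feature 6928 lay between 0.038 and 0.660 in controls (median 0.306), between 0.640 and 1.141 at 7 d (median 0.841) and between -0.048 and 1.529 at 21 d (median 0.861), with late differences of 0.59 and 0.57. Feature 7202 lay between -0.190 and 0.177 in controls (median -0.017), between 0.278 and 1.196 at 7 d (median 0.441) and between -0.014 and 1.125 at 21 d (median 0.352), with late differences of 0.62 and 0.51. All 7 d lesions of feature 7202 were above its controls, while for features 6778 and 6928 the lowest 7 d lesion was not above the highest control.

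Few of the 31 features were separated from the controls sample by sample. At 7 d 6 of them had every lesion above every control (features 4853, 5957, 7202, 7477, 7901 and 7904), against 2.99% of the 1908 features. At 21 d 4 did (features 4853, 5957, 7477 and 8378), against 1.31% of the 1908, and 3 features did at both ages. The selection used these differences, so nothing is read from the counts. Counted within pigs, 14 of the 31 were above the pig's own control in all 9 pigs at 7 d. At 21 d 8 were above it in all 9, and 6 were so at both ages. The selection shaped these counts too, and nothing is read from them.

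**Figure D3:**
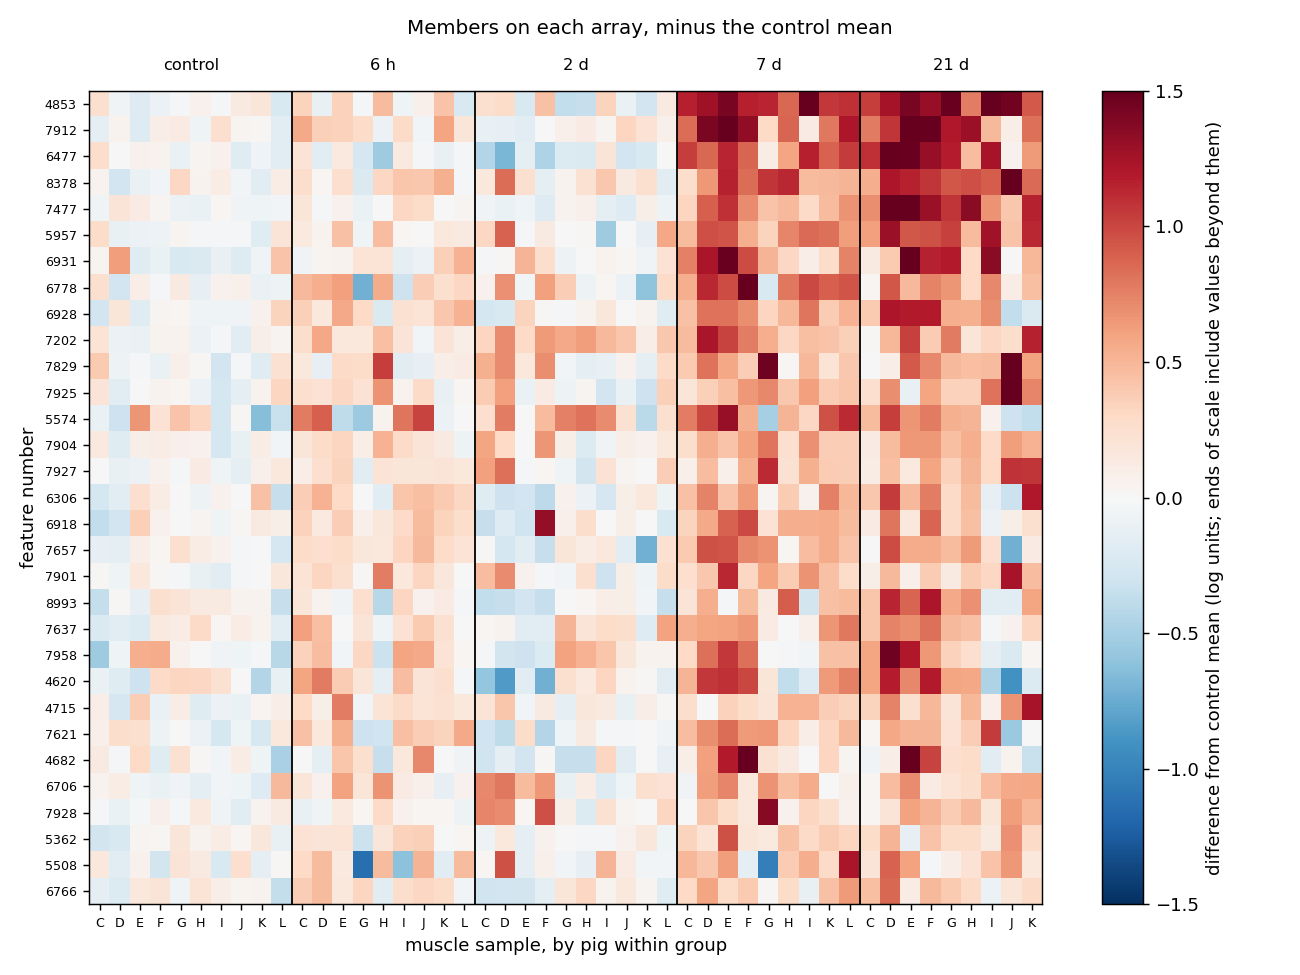
Value of each of the 31 features (vertical axis, ordered by mean late difference) in each muscle sample (horizontal axis, by pig within group) minus the feature's control mean, in log units, red above and blue below. Red is deepest in the 7 d and 21 d columns, above all in pigs D, E and F, and paler at 6 h.

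The mean of the 31 features in each array shows how the pigs varied. It averages the values that chose the features, so its high late level restates the choice. It was 0.225 ± 0.0471 (SD, n = 10) in the controls and was 0.414 ± 0.0935 (n = 9) in 6 h and 0.295 ± 0.0736 (n = 10) in 2 d lesions, against 0.777 ± 0.163 (n = 9) in 7 d and 0.788 ± 0.197 (n = 9) in 21 d lesions. The arrays of 7 d and 21 d overlapped in this mean, as did those of controls, 2 d and 6 h. Pigs D, E and F had the highest means at both late ages, with 0.963, 1.06 and 0.898 at 7 d and 1.07, 1.0 and 1.02 at 21 d. Their 7 d arrays had SDs of 0.384, 0.462 and 0.516 and their 21 d arrays of 0.736, 0.480 and 0.544, while the 21 d array of pig C, with the lowest late mean (0.554), had an SD of 1.10. Other arrays went the other way. Pig I had the lowest SD at 21 d (0.424) with a mean of 0.649, and pig G had the lowest 7 d mean (0.624) with an SD of 0.503. The part of the array SD in these means was not tested.

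Choosing the features without a pig and reading them in that pig keeps that pig's differences out of the choice. In this reading, added after the data were seen and with all arrays normalized together, the median difference of the features so chosen was above 0 in 9 of 9 pigs at 7 d, from 0.16 in pig C to 0.81 in pig D. At 21 d it was above 0 in 9 of 9 pigs too, from 0.039 in pig C to 0.82 in pig D. Over all features without a single symbol the same medians lay between -0.032 and 0.0042 at 7 d and between -0.049 and 0.0048 at 21 d. The share of chosen features above 0 at 21 d had a median of 89.7% over pigs. It was lowest in pig C, at 51.2% against 50.3% of all features without a single symbol. The median over pigs was 0.39 at both late ages, below the 0.50 and 0.48 of the full choice. At 6 h the median was above 0 in 9 of 9 pigs, from 0.023 in pig L to 0.41 in pig H, and at 2 d in 7 of 10, from -0.041 in pig G to 0.52 in pig D. The median late difference was thus above 0 in each pig left out of the choice, and small at 21 d in pig C and in pig J (0.094). The reading shares the scaling of the arrays, whose mean SD was 0.976 in controls, 0.607 at 7 d and 0.643 at 21 d. It therefore cannot tell an effect of the scaling from a change in the muscle, and the part of the scaling was not tested.

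**Figure D4:**
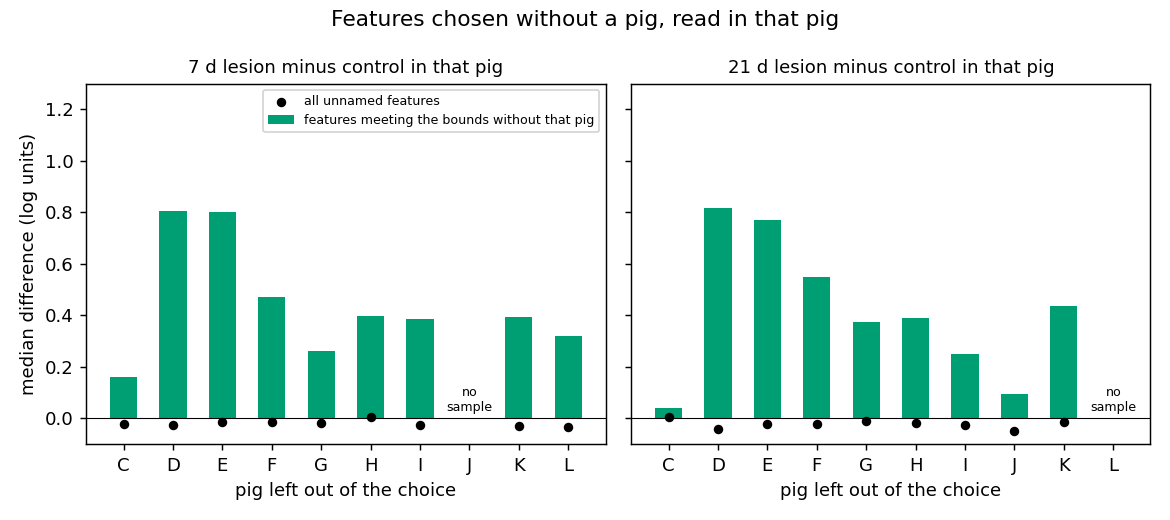
Median difference from the pig's own control at 7 d and at 21 d (vertical axis, log units) of the features chosen without that pig (bars) and of all features without a single symbol (points), by pig. All 9 bars lie above 0 at each age, with pig C lowest and pig D highest.

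Which of the features differed from control at 2 d was not set by the selection, although the same controls entered it, so this comparison is not independent of it. By limma with the animal as a block, 1 of the 31 features was called at 2 d, where 14 of the 1908 features were (0.734% called, all higher). This was feature 7202, which lay between 0.067 and 0.675 at 2 d with a median of 0.422, against a median of -0.017 in controls. It rose by 0.46 (SE 0.110, 95% confidence interval 0.23 to 0.68, adjusted p = 0.0244 by limma), and was above control in 10 of 10 pigs. The call was lost in 9 of the 21 alternatives tried, with the difference always above 0. It ran from 0.33 to 0.54 in log units, and was 0.61 array SDs on arrays divided by their SD. Leaving out pig D, F, G, H, I, J or L ended it, as did subtracting the local trend (adjusted p = 0.0725) and the array SD in the model (0.33, adjusted p = 0.299).

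The other 30 features were not called at 2 d (adjusted p from 0.43 to 0.987). Features 5574 and 7928 were the next highest, at 0.38 and 0.29, and features 6477, 4620 and 8993 the lowest, at -0.25, -0.17 and -0.15. The differences were thus on both sides of 0, and over all 31 features 21 were above 0 and 10 below. Of the 1702 features without a single symbol 752 were above 0 at 2 d. For 24 of the 31 the difference at 6 h was above that at 2 d and for 7 below it. Among the 1702 features 946 had 2 d above 6 h. By their medians the 31 were somewhat above control at 6 h, near control at 2 d and high at 7 d and 21 d. The same controls enter all these differences, and the selection used those at 6 h, 7 d and 21 d. The median 2 d difference of the 31 moved with the scaling, to 0.0053 on table values. The median 6 h difference was 0.21 on table values and 0.22 on median-centred arrays, and 0.12 with the array SD in the model.

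The comparison of 21 d with 7 d is made from means that the selection also used. It set the same bound for both ages and none for their difference. Its bound at 6 h, however, left out 74 features with median differences of 0.73 at 7 d and 0.47 at 21 d. The selection was thus not shown to be neutral between the late ages. The members' calls, counts and range here are not independent of it. Of the 31 features 1 was called, where 13 of the 1908 were (0.681% called, 3 higher and 10 lower at 21 d). Feature 7477 rose from 7 d to 21 d by 0.53 (SE 0.111, 95% confidence interval 0.31 to 0.76, adjusted p = 0.0113 by limma), in 8 of the 8 pigs with both lesions. The call was kept in 16 of 21 alternatives. Differences ran from 0.49 to 0.61 in log units, and the value was 0.71 array SDs on arrays divided by their SD. Leaving out pig H (adjusted p = 0.0704) or pig K (adjusted p = 0.0649) ended it, as did table values (0.172), centring alone (0.140) and subtracting the local trend (0.0861).

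No call was made for the other 30 features between 7 d and 21 d (adjusted p from 0.578 to 0.997). Over the 31 the fitted difference ran from -0.33 to 0.53 with a median of 0.03, against 0.0026 over all features. Features 8378 and 8993 had the next largest differences towards 21 d. Their mean differences from control were 0.73 at 7 d and 1.03 at 21 d for feature 8378, and 0.32 and 0.57 for feature 8993. Features 6778, 5574 and 6918 had the largest differences the other way, from 0.84 to 0.49, from 0.67 to 0.38 and from 0.57 to 0.32. None of these 5 passed the test, which does not show that their levels were the same at both ages. Within groups, features 5574 and 4620 were the most variable of the 31, with mean SDs of 0.484 and 0.450, and features 5362 and 7904 the least, with 0.188 and 0.191.

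The direction of some late differences depended on the scaling, and did so mostly for features with high values in controls. Of the 31 features 5 lay above 0.9 in controls, and 4 of these 5 turned below 0 at a late age when the table's own values were used. These were feature 4620 (-0.19 at 7 d and -0.16 at 21 d), feature 5508 (-0.37 and -0.36), feature 5574 (-0.013 and -0.18) and feature 7657 (-0.30 and -0.39). The fifth was feature 4853, which stayed above 0. Feature 7621, at 0.54 in controls, also turned at 21 d, to -0.042. For these 5 features the direction of the late difference thus depended on whether the unequal spread of the arrays was adjusted for. On table values 27 of the 31 were above control at 7 d and 26 at 21 d, and all 31 were at both ages with arrays divided by their SD, with the local trend subtracted, with the array SD in the model and with any pig left out. The local trend, the array SD model and the runs without a pig used quantile-normalized values, as the selection did. Their signs are thus not independent of the selection, and nothing is read from them.

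Within groups the 31 features did not behave as a single block. Deviations from the group means, over 47 arrays that every pair shares, had a median pairwise correlation of 0.129 (465 pairs), against -0.0106 between features without a single symbol and 0.279 between the 74 features that were high at 6 h, 7 d and 21 d. The pairs ran from -0.585 to 0.796, the closest being features 7904 and 7928 (0.796), 7901 and 7925 (0.788), 7829 and 7928 (0.774), and 4620 and 7637 (0.755). Average linkage, applied after the values were seen, divided the 31 into a set of 16 and a set of 15, with median correlations of 0.438 and 0.274 within and -0.0868 between them. The method groups features by these same correlations, so nothing is read from this contrast. The set of 16, with features 6477, 6931, 7477 and 7912, had a median 2 d difference of -0.05, and 6 of its 16 features were above control at 2 d. The set of 15, with features 4853, 5957, 7202 and 8378, had a median of 0.14, and 15 of 15 were above control. The sets had median correlations with the array SD of 0.0479 and -0.258, and the part of the array SD in the division was not tested.

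Some of the closest pairs lie near each other in the feature list. Of the 31 features 7 fall among the 58 features from 7901 to 7958, a stretch picked after the values were seen. The stretch also holds 10 of the 74 features that were high at 6 h, 7 d and 21 d. The 51 features in it that were not selected had median differences of 0.09, 0.12, 0.18 and 0.16 at 6 h, 2 d, 7 d and 21 d, above the medians near 0 over all features. In blocks of 384 listed features, the ninth, from feature 7681, held 8 members among 168 features without a single symbol (4.76%), and its median 7 d difference was 0.139. Over the whole list there were 31 among 1702, and the tenth block held 1 among 20 (5%). The ninth block also held 17 of the 74 features high at 6 h, 7 d and 21 d, so this crowding was not particular to the 31. The second block had the lowest median 7 d difference, at -0.125. The tested features within 10 places of a member had a typical median difference of 0.055 at 7 d and 0.085 at 21 d, against -0.030 and -0.031 around features without a single symbol in general. Around feature 4853 that median was 0.01 at both late ages. The part of list position in the members' differences was not tested beyond the subtraction of the local trend, after which 19 of the 31 met the bounds.

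**Figure D5:**
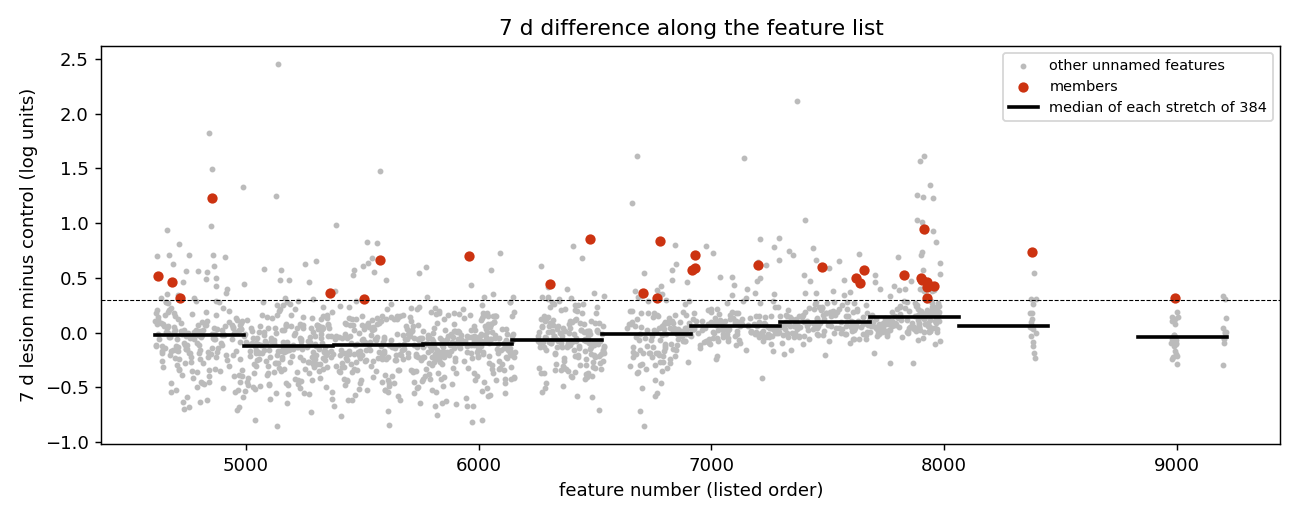
Difference from control at 7 d (log units) against feature number in listed order for the features without a single symbol, with the 31 selected ones in red, black bars for the median of each stretch of 384 and a dashed line at 0.3. The selected features lie along the list with 8 in the ninth stretch, where the median was 0.139.

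Among the 206 features with a gene symbol, 2 met the same bounds. ANPEP, aminopeptidase N, a cell surface enzyme that trims peptides and that myeloid cells and fibroblasts also carry, was listed as feature 5115. It lay between -0.18 and 0.38 in controls (median 0.14), between 0.25 and 1.25 at 7 d (median 0.74) and between 0.90 and 1.81 at 21 d (median 1.10). Its differences were 0.16, 0.19, 0.63 and 1.13, it met the bounds under all 5 scaling and model alternatives, and like feature 7477 it was higher at 21 d than at 7 d, by 0.48, though not called (adjusted p = 0.0558 by limma). The other ANPEP feature, 4970, was at 0.01 at 7 d and 0.02 at 21 d, so the features of this symbol did not move together.

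B2M, the light chain of class I major histocompatibility molecules, was listed as feature 5381. It lay between -0.09 and 1.44 in controls (median 0.77), between 0.31 and 1.69 at 7 d (median 1.43) and between -0.06 and 1.83 at 21 d (median 1.20). The groups overlapped widely, and the late differences of 0.55 and 0.42 turned to -0.11 and -0.11 on table values.

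Of the symbol features, those whose deviations from the group means were most like the mean deviation of the 31, over the same 47 arrays, were JAK1 (r = 0.701), a kinase of cytokine receptors, UGP2 (0.594), which makes UDP-glucose, MGST3 (0.591), a microsomal glutathione transferase, ANPEP feature 5115 (0.547) and MYLPF feature 7944 (0.542), the fast myosin regulatory light chain. The median over the 206 was -0.0701. JAK1 differed from the 31 in its early value, at 0.68 at 6 h, with 0.74 at 7 d and 0.54 at 21 d. MYLPF has 18 features that go both ways, with feature 7944 at 1.18 at 7 d and feature 5772 at -0.60. Arrays are shared by all of these values, so the correlations describe likeness across these samples alone.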

How the data were processed

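Radioactively labelled cDNA of each muscle sample was hybridised to 1 nylon array with duplicated spots, per the labels. The authors deposited 1 table of values on a log scale of unstated base, which is a unit other than counts or intensities, and the steps behind it are not given in the sources used here. Its 90 columns cover 48 samples, and 1908 of its 4608 listed features are filled in every column. Columns of a sample were averaged (41 of 42 pairs were identical). The pig J 6 h column that copies the pig I control and the 6 h array of pig F were left out, which left 47 arrays. Values were quantile normalized and fitted with limma 3.58.1 in R 4.3.3 (lmFit, eBayes), with group and animal as fixed terms and Benjamini-Hochberg adjustment over 1908 features. Calls were made at adjusted p-values below 0.05. Tests were two-sided. The animal is a block because each pig gave a control and lesions of several ages. As a check, deviations of samples from 1 pig had a median correlation of -0.0236, against -0.0249 between pigs, so the pairing rests on the design. Arrays carry no counts, so their number limits the precision.

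The 31 features, the marker lists and the comparisons were chosen with earlier results of these data known. Named features are the 10 with the largest mean late difference, the 3 nearest each bound on either side, the extremes of the 2 d and of the 21 d minus 7 d differences, those called, and the most and least variable. All symbol features within the bounds and the 5 most alike are named, and others were chosen after their values were seen. Alternatives were other scalings and models, other bounds, each pig left out, and the choice of features repeated without each pig. Figures were drawn with matplotlib 3.10.9 and numpy 2.4.6.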

Additional observations from a re-analysis of the deposited data

Results flagged for a closer look

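Over the 31 features and their mean, in 5 groups each, 160 groups of values were examined for a single sample far from the rest. There were 12 such samples, and chance gives about 1 in 20 groups. These 12 values lie in 9 features. At 6 h, feature 4715 was at 0.60 in pig E (others -0.21 to 0.13), feature 7657 at 1.72 in pig J (others 1.39 to 1.56), feature 7829 at 0.81 in pig H (others -0.39 to 0.057), feature 7901 at 0.65 in pig H (others -0.13 to 0.21) and feature 7927 at -0.20 in pig G (others 0.077 to 0.31). At 2 d, feature 6918 was at 1.50 in pig F (others -0.16 to 0.44). At 7 d, feature 5362 was at 0.99 in pig E (others 0.19 to 0.48), feature 7901 at 1.01 in pig E (others 0.14 to 0.55), feature 7927 at 1.09 in pig G (others 0.046 to 0.51) and feature 7928 at 1.26 in pig G (others -0.12 to 0.31). At 21 d, feature 7901 was at 1.12 in pig J (others -0.05 to 0.37). In controls, feature 6706 was at 0.37 in pig L (others -0.31 to -0.0050). Features 7927 and 7928, next to each other in the list, both had their outlying 7 d value in pig G. Of the 9 features, 6706, 7829 and 7927 met the bounds whichever pig was left out. Features 5362 and 7657 met them in 4 of 10 such runs, features 4715, 6918 and 7928 in 7, and feature 7901 in 9.

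Feature 7477 differed between the late ages, with 21 d above 7 d by 0.53 in the tested comparison. The selection used both of these means. The call was lost on table values, on median-centred arrays, with the local trend subtracted, and without pig H or pig K.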

How the results depend on the processing

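The number of features that met the bounds was 71 on median-centred arrays and 20 with a bound of 0.5, against 31. Shared with the 31 were 14 of 45 on table values, 15 of 71 on median-centred arrays, 15 of 40 on centred arrays divided by their SD, 19 of 24 with the local trend subtracted and 10 of 30 with the array SD in the model. On arrays divided by their SD the bound of 0.3 was in array SDs. Without a pig the number ran from 25 to 43, and 12 of the 31 met the bounds whichever pig was left out. Of the 31, 2 were called at 2 d on median-centred arrays and 0 with the local trend subtracted or the array SD in the model, and 0 to 1 with a pig left out. At 21 d against 7 d 0 were called on table values, on median-centred arrays and with the local trend subtracted, and 0 to 1 with a pig left out. Without the replicate block, which ignores the pairing by animal, 1 feature was called in each comparison, as with it. The median difference at 6 h was 0.12 with the array SD in the model, and that at 2 d was 0.0053 on table values and 0.021 on median-centred arrays. Among the 20 features named by rule, late differences turned below 0 on table values and median-centred arrays for feature 7621 (21 d, -0.042 and -0.019), feature 5508 (7 d, -0.37 and -0.35, and 21 d, -0.36 and -0.34), feature 4620 (7 d, -0.19 and -0.17, and 21 d, -0.16 and -0.13) and feature 5574 (21 d, -0.18 and -0.16). Feature 5574 at 7 d turned on table values alone (-0.013). Feature 7657, outside that rule, turned as well (7 d, -0.30 and -0.27, and 21 d, -0.39 and -0.36). Of 480 values of those 20 features under these settings, 432 moved by less than the spread between pigs and 35 moved by more. The other 13 turned in sign, which was counted only where the main difference was at least 0.3 in size. The 480 include values on arrays divided by their SD, which are in array SDs but were set against the spread in log units. Smaller differences that changed sign are among the 432 and the 35. The cause was not tested.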
